A study of Mus musculus with 4 samples.

Results

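The 10 genes described here belong to bone morphogenetic protein (BMP) signalling: the ligand gene Bmp4, the receptor gene Bmpr1a, the target genes Id1, Id2 and Id3, the inhibitors Smad6 and Bambi, and the extracellular antagonists Grem1, Fst and Nog. They were taken by gene symbol from the platform annotation, which gave 18 probe sets of the 45101 rows of the array table and 10 of 18193 named genes. The genes were picked with the comparison of Klf5 KO and WT cells known, so their values in that comparison are a description. The 4 arrays came from mouse embryonic stem (ES) cells, 1 array per clone: 2 clones in which the gene of the zinc finger transcription factor Klf5 was knocked out (KO) and 2 wild-type (WT) clones. All 4 clones grew in the same ES medium with 15% fetal bovine serum and LIF, the cytokine that holds mouse ES cells undifferentiated. The stated search was for genes lower in the KO cells. The labels do not name the strain, the deleted part of Klf5, how the clones were derived or a feeder layer, and nothing says that the clones of a group were more than separately named cell lines. The p-values therefore set the genotype difference against the spread between these clones, in part pooled over all probe sets.

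BMP ligands bind paired type I and type II receptor kinases at the cell surface, and the type I receptors phosphorylate Smad1, Smad5 and Smad9, which enter the nucleus with Smad4. Id genes are direct targets of these Smads and encode proteins that block basic helix-loop-helix factors. In mouse ES cells BMP4 acts with LIF to hold off differentiation through Id proteins, and serum is itself a source of BMP activity. Gremlin 1 (Grem1) and noggin (Nog) bind BMP ligands outside the cell, and follistatin (Fst) binds activins strongly and some BMPs more weakly.

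Across the 4 arrays the trimmed mean of the deposited intensities differed by up to 1.65 times, with WT clone 1 brightest, so the arrays were quantile normalized. Values are normalized intensities, and log2 differences are KO minus WT of log2(intensity + 16), with the moderated standard error (SE) of a limma fit over all 27022 probe sets kept by a filter on dim rows (mean below an intensity of about 13.05). The threshold of that fit was an adjusted p of 0.05, with n = 2 arrays per group throughout. It was passed by 659 probe sets higher and 337 lower in KO. With the arrays centred on their medians instead, the split was 640 higher and 1420 lower, and the median of all log2 differences was -0.16, against -0.022 after quantile normalization. Klf5 itself read 34.8 and 49.9 in KO clones 1 and 2, against 2398 and 1782 in WT clones 1 and 2, on its brightest probe set, so the arrays matched their labels. A second Klf5 probe set read 82.6 and 61.03 in KO against 102 and 88.6 in WT. For beta-actin, the control probe sets of the 3' end exceeded those of the 5' end, a measure of RNA integrity, by log2 ratios of 0.75 and 0.52 in KO clones and 0.48 and 0.44 in WT clones. For Gapdh the same ratios were -0.33 and -0.29 in KO clones and -0.32 and -0.32 in WT clones, with no separation of the genotypes.

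Of the 18 member probe sets, 15 passed the filter, covering 9 of the 10 genes. In KO clones the secreted antagonists Grem1 and Fst were far higher and the ligand gene Bmp4 was lower. Id1 and the kept probe sets of Id2 read lower in both KO clones, while Id3, Bmpr1a and Bambi showed no separation on their brightest probe sets. In the fit over all probe sets, 3 of the 15 member probe sets (the 1 of Grem1 and both of Fst) were past the threshold and higher, where the share of all probe sets was 2.44%. A further 2 (Bmp4 and 1 of Id2) were past it and lower, where the share was 1.25%, and 10 did not pass. That is 5 in either direction, where the share was 3.69%. Because the genes were chosen from this contrast, nothing is read from these shares. The median log2 difference of the 15 was 0.025, against -0.022 over all kept probe sets. In bulk RNA, a gene expressed by more or fewer cells cannot be told apart from one expressed more or less per cell.

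**Figure D1:**
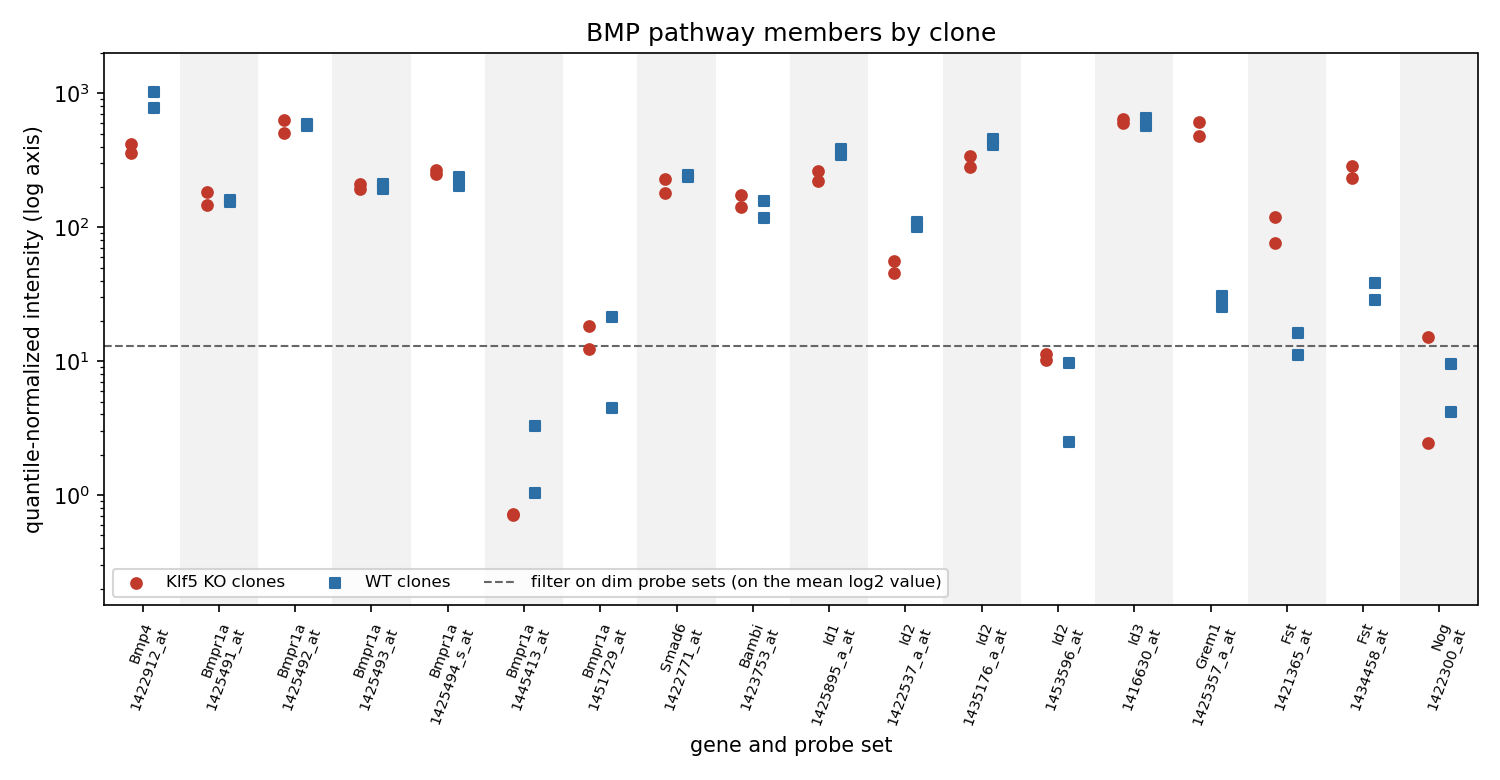
Normalized intensity (log axis) of each of the 18 member probe sets, with the 2 Klf5 KO clones as red circles and the 2 WT clones as blue squares. The dashed line marks the intensity of the filter on dim probe sets, 13.05. The KO clones lie far above the WT clones for Grem1 and both kept Fst probe sets and below them for Bmp4, Id1 and both kept Id2 probe sets.

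A promoter was found in the RefSeq table (build GRCm38.p6) for 6 of the 10 members: Bmp4, Id2, Id3, Smad6, Bmpr1a and Grem1. The 4 printed here are those of a ligand and a target that read lower in KO (Bmp4 and Id2), of a target that did not differ (Id3) and of the antagonist that was higher (Grem1). Each runs 5' to 3' on the gene's strand, 250 bases before to 50 after the annotated start. The capitals mark matches to GGCGCC, a sequence bound by BMP-type Smads that reads the same on both strands, and to GGGNGNGGC on either strand, a GC-box form bound by Kruppel-like factors.
Bmp4: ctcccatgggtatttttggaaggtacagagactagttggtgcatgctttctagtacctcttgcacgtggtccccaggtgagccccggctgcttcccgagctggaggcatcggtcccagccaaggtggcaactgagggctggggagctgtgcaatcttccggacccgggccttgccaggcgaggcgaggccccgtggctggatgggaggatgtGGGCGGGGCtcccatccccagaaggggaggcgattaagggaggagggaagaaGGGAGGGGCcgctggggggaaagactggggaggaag
Id2: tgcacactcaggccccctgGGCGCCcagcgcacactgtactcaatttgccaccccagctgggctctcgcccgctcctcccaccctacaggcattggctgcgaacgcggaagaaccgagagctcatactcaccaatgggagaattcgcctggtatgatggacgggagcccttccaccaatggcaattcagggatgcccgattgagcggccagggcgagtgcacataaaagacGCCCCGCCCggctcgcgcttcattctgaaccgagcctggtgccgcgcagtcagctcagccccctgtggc
Id3: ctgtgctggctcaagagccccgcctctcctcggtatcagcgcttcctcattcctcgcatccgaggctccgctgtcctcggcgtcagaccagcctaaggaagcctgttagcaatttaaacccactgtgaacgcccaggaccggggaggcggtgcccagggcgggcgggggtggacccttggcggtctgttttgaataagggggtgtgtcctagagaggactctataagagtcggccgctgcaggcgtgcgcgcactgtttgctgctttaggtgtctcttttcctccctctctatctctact
Grem1: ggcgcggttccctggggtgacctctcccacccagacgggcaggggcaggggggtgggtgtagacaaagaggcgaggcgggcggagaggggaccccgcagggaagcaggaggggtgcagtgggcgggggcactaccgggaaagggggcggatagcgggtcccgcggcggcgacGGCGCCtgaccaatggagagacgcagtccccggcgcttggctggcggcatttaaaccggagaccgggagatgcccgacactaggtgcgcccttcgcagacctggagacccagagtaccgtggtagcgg
These windows are chr14:46390620-46390919 on the minus strand for Bmp4, chr12:25096043-25096342 on the minus strand for Id2, chr4:136143572-136143871 on the plus strand for Id3 and chr2:113758599-113758898 on the minus strand for Grem1. GGGNGNGGC occurred in 2 places for Bmp4, starting 38 bases before and at base 15 after the start. It occurred in 1 place for Id2, starting 19 bases before it, and not in the windows of Id3 or Grem1. Among the promoters not printed, it occurred in 2 places for Bmpr1a, whose brightest probe set did not differ, and not for Smad6. GGCGCC occurred once for Id2, 231 bases before the start, and once for Grem1, 78 bases before it. The unprinted Bmpr1a window held it too, 198 bases before the start, and that of Smad6 did not. No match of one overlapped a match of the other, and TATAAA, also searched on both strands, was in none of the 4. Of the 32841 promoters of this length, 25.8% held GGGNGNGGC, 11.9% held GGCGCC and 13.6% held TATAAA. The matches describe these letters and do not show a bound site.

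Bmp4, the ligand of the group, was lower without Klf5. Its single probe set (1422912_at) read 415 and 358 in KO clones 1 and 2, against 774 and 1020.5 in WT clones 1 and 2. Both KO clones lay below both WT clones, and the KO over WT ratio ran from 0.35 to 0.54 over the 4 pairings of a KO with a WT clone. The log2 difference was -1.17 ± 0.21 (SE; 95% confidence interval -1.64 to -0.71), a 2.25-fold lower level. With WT clone 1 left out it was still past the threshold (-1.37). It was not past it when KO clone 1 (-1.27), KO clone 2 (-1.07) or WT clone 2 (-0.97) was left out, with a pseudocount of 1 (-1.20) or with no filter, and it passed in 7 of the 12 alternatives.

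Bmpr1a encodes a type I BMP receptor and had the most probe sets of any member, 6, of which 5 were kept. The brightest (1425492_at) read 509.5 and 628 in KO clones, against 589 and 566 in WT clones, and the WT values lay between those of the KO clones. Its log2 difference was -0.030 ± 0.19 (95% confidence interval -0.46 to 0.40). The next 3 kept probe sets had log2 differences of 0.051 (1425491_at), -0.0086 (1425493_at) and 0.23 (1425494_s_at). Only the last of these separated the clones, with 269 and 249.9 in KO against 204 and 235 in WT, and the suffix of its name means that its probes may match other transcripts too. Both KO clones lay above both WT clones in 23.9% of all kept probe sets. The dimmest kept probe set of Bmpr1a (1451729_at) spread from 4.46 to 21.4 within WT, wider than the 12.3 to 18.2 of KO. The interval of the brightest probe set excludes a change as large as that of Bmp4.

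Among the targets, Id1 and Id2 read lower in KO and Id3 did not. Id1 (1425895_a_at) read 264 and 223 in KO clones 1 and 2, against 385 and 348 in WT clones 1 and 2. The groups did not overlap, and the log2 difference was -0.56 ± 0.19 (95% confidence interval -0.99 to -0.14), which did not pass the threshold over all probe sets. Both KO clones lay below both WT clones in 28.4% of all kept probe sets, which shows how common a separation of this kind was. Id1 passed with a pseudocount of 64 (-0.49) and with the arrays centred on their medians (-0.82). Median centring moved the median of all log2 differences to -0.16, and its fit gave every named probe set the same SE (0.27).

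Id2 had a brighter and a dimmer kept probe set. The brighter (1435176_a_at) read 338 and 281 in KO clones, against 458 and 408 in WT clones, a log2 difference of -0.47 ± 0.19 (95% confidence interval -0.90 to -0.038) that did not pass. The dimmer (1422537_a_at) read 45.6 and 55.8 in KO clones, against 109 and 101 in WT clones. Its log2 difference was -0.86 ± 0.18 (95% confidence interval -1.28 to -0.44), past the threshold with all 4 arrays and in none of the 4 fits that left an array out. It also did not pass with a pseudocount of 1 (-1.04), with no filter or with no normalization (-1.01), and it passed in 5 of the 12 alternatives. Leaving out KO clone 1 gave -0.78, KO clone 2 gave -0.98, WT clone 1 gave -0.77 and WT clone 2 gave -0.91. Both kept probe sets of Id2 thus read lower in KO, by unequal amounts. A dim probe set of Id2 under the filter (1453596_at) had the opposite direction, with 11.2 and 10.2 in KO against 2.5 and 9.74 in WT.

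Id3 (1416630_at) read 596 and 645 in KO clones, against 569 and 652 in WT clones. The clones of each genotype spread over the same range, and the log2 difference was 0.025 ± 0.18 (95% confidence interval -0.39 to 0.44). Its sign was negative with no normalization (-0.33), with median centring (-0.29) and in some fits without an array, where the lowest value was -0.073. The difference between Id1 or Id2 and Id3 was not tested.

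The inhibitors inside or on the cell did not pass. Smad6, an inhibitory Smad that is itself induced by BMP, read 181 and 229 in KO clones and 239 and 246 in WT clones. The KO clones lay just below the WT clones, by a log2 difference of -0.23 ± 0.19 (95% confidence interval -0.67 to 0.20). Bambi, a receptor-like protein without a kinase domain that dampens BMP and TGF-beta signals, read 175 and 141 in KO clones and 156 and 118 in WT clones. These overlapped, with a log2 difference of 0.19 ± 0.21 (95% confidence interval -0.28 to 0.66), and the sign was negative in the values as deposited (-0.070).

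Grem1 was the member with the largest difference. Its single probe set (1425357_a_at) read 608 and 477 in KO clones 1 and 2, against 30.7 and 25.2 in WT clones 1 and 2. Every KO to WT pairing was at least 15.5-fold apart, and the highest was 24.1-fold. The log2 difference was 3.66 ± 0.20 (95% confidence interval 3.21 to 4.11), 12.6-fold on the scale with the pseudocount. It was past the threshold under all 12 alternatives, with values from 2.71 (pseudocount of 64) to 4.23 (pseudocount of 1), and from 3.56 to 3.86 with an array left out.

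Fst, encoding follistatin, was higher in KO on both of its probe sets. The brighter (1434458_at) read 285 and 233.5 in KO clones, against 38.1 and 28.4 in WT clones, with pairings from 6.13-fold to 10.05-fold. Its log2 difference was 2.48 ± 0.20 (95% confidence interval 2.03 to 2.94). The dimmer (1421365_at) read 119 and 76.9 in KO clones, against 11.2 and 16.1 in WT clones, where it lay near the filter intensity. Its log2 difference was 1.92 ± 0.22 (95% confidence interval 1.41 to 2.43), and with a pseudocount of 1 it was 2.74. Both probe sets were past the threshold under every alternative in which they were kept.

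Nog had a single probe set (1422300_at), which read 2.46 and 15.1 in KO clones and 4.14 and 9.5 in WT clones. It was under the filter, and its KO clones lay on either side of the WT clones. Grem1 and Fst were thus the antagonists among the members with a kept probe set.

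**Figure D2:**
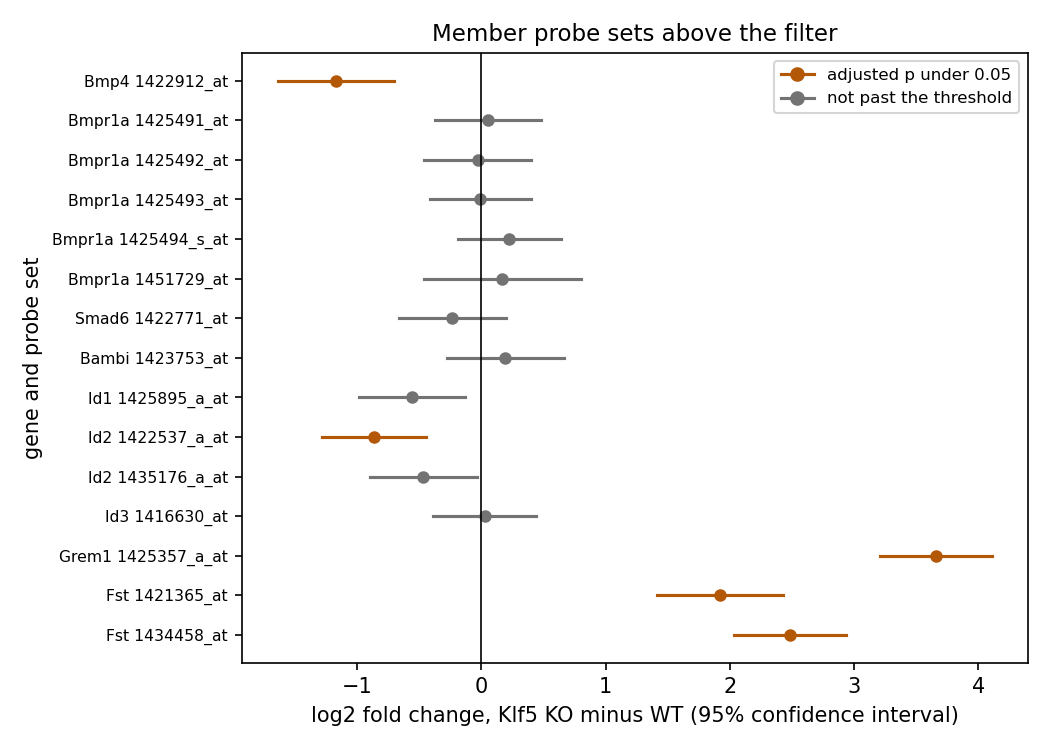
Log2 fold change, Klf5 KO minus WT, of the 15 member probe sets above the filter, with 95% confidence intervals from the limma fit over all probe sets (2 arrays per group). Orange marks an adjusted p under 0.05. Grem1 lies at 3.66, the Fst probe sets at 1.92 and 2.48 and Bmp4 at -1.17, while all 5 Bmpr1a intervals include 0.

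A list of 59 other genes of the pathway was drawn up with earlier results of these data known, so its counts are a description. Of the 59 genes, 55 had a row and 41 a kept probe set, 1 per gene. By limma, 4 of the 41 were higher in KO (adjusted p under 0.05), against 2.94% of all 13023 genes, and 0 were lower, against 1.34% (4.28% in either direction). At an unadjusted p under 0.05, 11 were higher and 2 lower, where the shares of all genes were 10.9% and 10.6%. The 4 were Inhba, Fstl1, Bmper and Bmp1, which all encode secreted proteins. Bmper was kept through its KO values alone, since its WT mean was under the filter, so its place in this count is no support. Smad9 was likewise kept through its KO values alone, and Bmp6 through its WT values alone. Both are in the unadjusted counts and in the counts of clone order below, where their places are no support either. Of the 38 genes whose means in KO and in WT were both above the filter, 3 were higher and 0 lower, against 2.51% of all such genes higher. The median log2 difference of the 41 was 0.034, against -0.024 over all genes. Without regard to the test, the 2 KO clones lay above both WT clones for 17 of the 41 genes and below them for 9, where the shares of all genes were 25.9% and 29.7%.

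**Figure D3:**
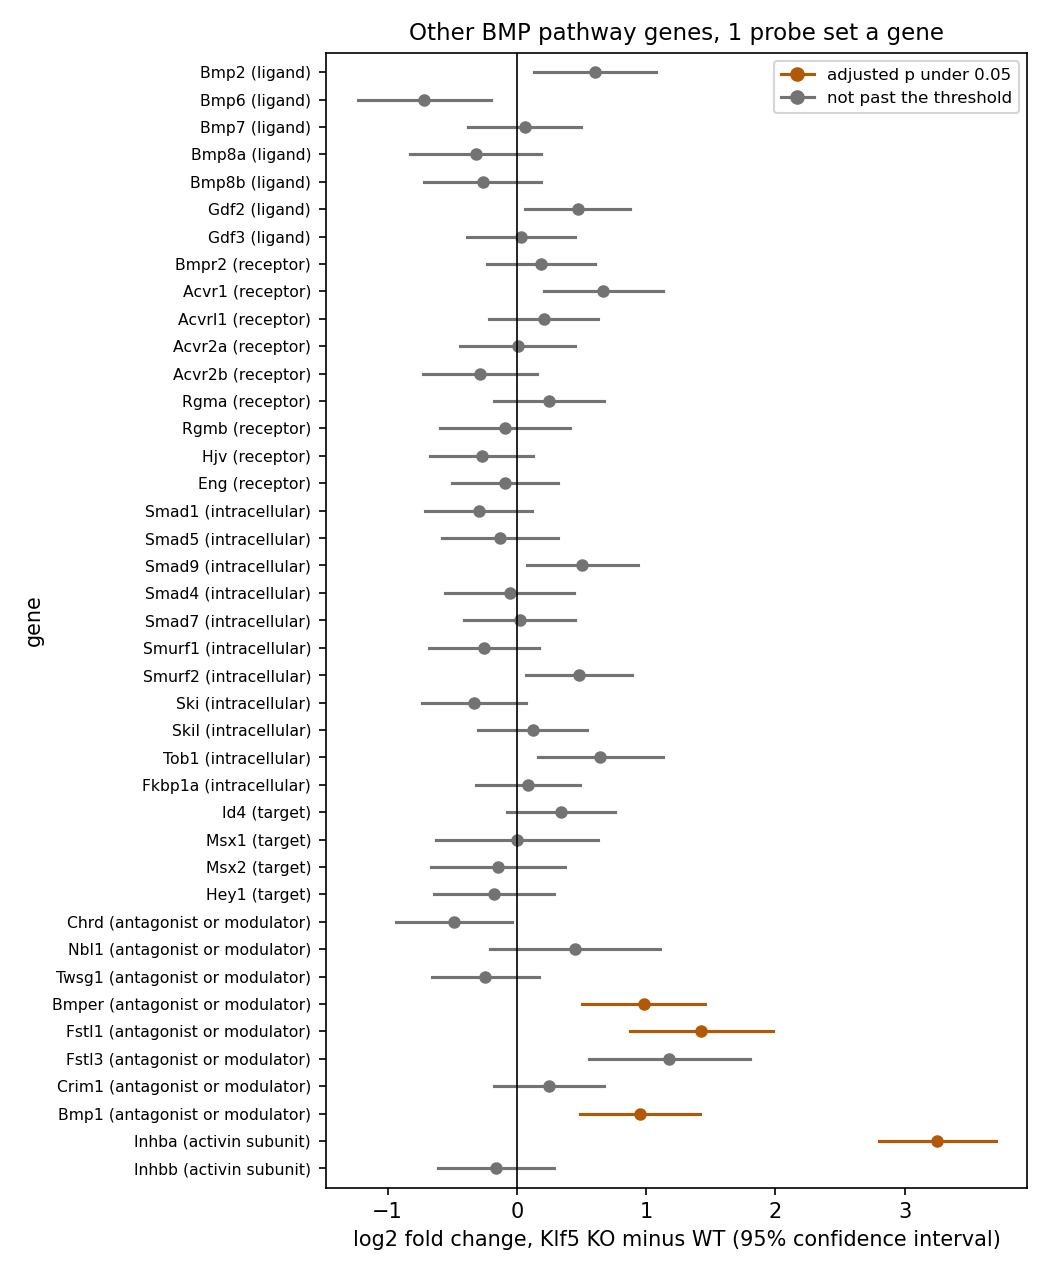
Log2 fold change, Klf5 KO minus WT, of the 41 other BMP pathway genes above the filter, by role, with 95% confidence intervals from the limma fit (2 arrays per group). Orange marks an adjusted p under 0.05. Inhba stands at 3.25, and Fstl1, Bmper and Bmp1 lie between 0.95 and 1.43.

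Of 16 extracellular antagonists and modulators, 8 were kept, 3 rose and 0 fell, against 2.94% and 1.34% of all genes. At an unadjusted p under 0.05, 4 were higher and 1 lower, against 10.9% and 10.6% of all genes. The median log2 difference of the 8 was 0.70. Bmper, kept through its KO values alone, is 1 of the 3 that rose and is in this median. Fstl1, follistatin-like 1, a secreted glycoprotein reported to bind BMPs, read 697 and 625 in KO clones, against 304 and 181 in WT clones. It rose by 1.43 ± 0.24 on the log2 scale (limma, adjusted p = 0.016), and its other probe set, with 460.3 and 389.5 in KO against 158 and 100.5 in WT, by 1.63 ± 0.23 (adjusted p = 0.0069). With WT clone 1 left out Fstl1 passed (adjusted p = 0.0026), and it did not pass with KO clone 1 (0.15), KO clone 2 (0.077) or WT clone 2 (0.066) left out. Over all 12 alternatives its adjusted p ran from 0.0012 to 0.15.

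Bmper, a chordin-like BMP-binding protein, read 29.1 and 47.3 in KO clones, against 11.6 and 10.5 in WT clones, which were both under the filter intensity. Its log2 difference was 0.98 ± 0.21 (limma, adjusted p = 0.040), on a probe set that was kept only because it was high in KO. Bmp1, despite its name a metalloprotease that cleaves the antagonist chordin and procollagens, read 155 and 122 in KO clones, against 55.4 and 72.3 in WT clones. It rose by 0.95 ± 0.20 (limma, adjusted p = 0.038), and a dimmer probe set (41.6 and 42.6 in KO, 17.4 and 17.7 in WT) by 0.79 ± 0.18 (adjusted p = 0.046). Neither gene passed with any array left out. For Bmper, leaving out KO clone 1 gave an adjusted p of 0.076, KO clone 2 of 0.12, WT clone 1 of 0.098 and WT clone 2 of 0.13. For Bmp1, leaving out KO clone 1 gave an adjusted p of 0.22, KO clone 2 of 0.077, WT clone 1 of 0.16 and WT clone 2 of 0.067. Over all alternatives in which each was kept, the adjusted p ran from 0.0094 to 0.30 for Bmper and from 0.015 to 0.48 for Bmp1.

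Chrd, which encodes chordin, the antagonist that Bmp1 cleaves, did not pass, with 20.03 and 11.9 in KO clones, against 27.8 and 29.1 in WT clones. Its log2 difference was -0.49 ± 0.20 (adjusted p = 0.21). Twsg1, a chordin partner, had -0.24 ± 0.18 (adjusted p = 0.49). Both KO clones lay below both WT clones on the brightest probe set of each.

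The activin subunit genes were included because follistatin binds activins. Inhba, the subunit of activin A, read 329 and 253 in KO clones, against 17.7 and 14.2 in WT clones. It rose by 3.25 ± 0.20 (95% confidence interval 2.80 to 3.70; limma, adjusted p = 8.1e-05) and passed under all 12 alternatives, with values from 2.14 to 4.1. Inhbb, the subunit of activin B, read 249 and 208 in KO clones and 285 and 230.3 in WT clones, with a log2 difference of -0.16 ± 0.20 (adjusted p = 0.69). Both KO clones lay above both WT clones for the kept Inhba probe set, as they did for Fst, and the clones overlapped for Inhbb. A very dim Inhba probe set under the filter overlapped, with 0.66 and 2.53 in KO against 1.07 and 1.30 in WT.

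Ligand genes other than Bmp4 did not pass. Of 14, 7 were kept, 0 rose and 0 fell, against 2.94% and 1.34% of all genes. At an unadjusted p under 0.05, 2 were higher and 1 lower, against 10.9% and 10.6% of all genes. The 1 lower was Bmp6, which was kept through its WT values alone, since its KO mean was under the filter. Bmp2, which signals through the same receptors as Bmp4, read 30.2 and 42.1 in KO clones, against 22.2 and 14.4 in WT clones. The KO clones lay above the WT clones, with a log2 difference of 0.60 ± 0.21 (limma, adjusted p = 0.15). Bmp7 had 0.059 ± 0.19 (adjusted p = 0.89), and its other kept probe set, which also overlapped, had -0.30. Gdf3, a ligand expressed in ES cells, read 724 and 712 in KO clones, against 646 and 760.3 in WT clones, a log2 difference of 0.034 ± 0.18 (adjusted p = 0.94). On its dimmer probe set both KO clones (91.1 and 106.8) lay below both WT clones (132.7 and 119.5), a log2 difference of -0.31 ± 0.18 (limma, adjusted p = 0.39).

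The receptors and Smads did not pass either. Of 10 receptor and co-receptor genes, 9 were kept and 0 passed, against 4.28% of all genes in either direction. At an unadjusted p under 0.05, 1 was higher and 0 lower, against 10.9% and 10.6% of all genes. The type I receptor gene Acvr1 read 134 and 187 in KO clones, against 96.3 and 91.3 in WT clones, a log2 difference of 0.67 ± 0.20 on its brightest probe set (limma, adjusted p = 0.11). Its other kept probe sets overlapped between the genotypes and had 0.12 and -0.36. The type II receptor genes Bmpr2 and Acvr2b had 0.19 ± 0.18 (adjusted p = 0.61) and -0.29 ± 0.19 (adjusted p = 0.44). All 11 Smad and intracellular regulator genes were kept and 0 passed, against the same 4.28%. At an unadjusted p under 0.05, 3 were higher and 0 lower, against 10.9% and 10.6% of all genes. Smad9, 1 of these 3, was kept through its KO values alone, since its WT mean was under the filter. Smad1 had -0.30 ± 0.18 (adjusted p = 0.40), with both KO clones below both WT clones. Smad5 had -0.13 ± 0.20 (adjusted p = 0.76). Smad4, the common partner, had -0.054 ± 0.22 (adjusted p = 0.92), and Smad7, an inhibitory Smad, 0.021 ± 0.19 (adjusted p = 0.96). These are the values of the brightest probe sets. The other kept probe sets had -0.42 and -0.28 for Smad1, 0.041 and 0.083 for Smad5, -0.26 and -0.33 for Smad4 and 0.44 for Smad7.

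Of 6 further target genes, 4 were kept and 0 passed, against 4.28% of all genes in either direction. At such a share, nothing is read from a count of 0 in this list or in the ligand, receptor and intracellular lists. At an unadjusted p under 0.05, 0 were higher and 0 lower, against 10.9% and 10.6% of all genes. Id4, the remaining Id gene, read 178 and 208 in KO clones, against 151 and 146 in WT clones. Both KO clones lay above the WT clones, with a log2 difference of 0.34 ± 0.18 (limma, adjusted p = 0.33; 95% confidence interval -0.073 to 0.76). The other kept probe sets of Id4 did not separate the clones, with 66.6 and 77.9 in KO against 41.1 and 94.6 in WT, and 103 and 110.5 in KO against 66.9 and 118 in WT. Of the 4 Id genes, the dimmer Id2 probe set alone was past the threshold.

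Markers of fibroblasts, cells that also express Grem1, Fst and Inhba, were higher in the same KO clones. Of 18 fibroblast and feeder cell markers, 15 were kept, 13 rose, against 2.94% of all genes, and 0 fell (14 higher, against 10.9% of all genes, and 0 lower at an unadjusted p under 0.05), with a median log2 difference of 1.91. The summed intensity of the 17 with a row was 6003 and 5149 in KO clones, against 689.9 and 547 in WT clones. Col1a1, a chain of type I collagen, read 259 and 285 in KO against 63.0 and 25.3 in WT, and Thy1, a surface antigen of fibroblasts, 393 and 355 in KO against 118 and 112 in WT. Col3a1 read 182 and 181 in KO against 90.7 and 31.5 in WT, and Pdgfrb 95.5 and 127 in KO against 43.03 and 31.9 in WT. On their brightest probe sets these defining markers were thus measured above the filter in all 4 clones. Other probe sets of Col3a1 and Pdgfrb were under the filter. That of Col3a1 overlapped, with 8.79 and 16.3 in KO against 13.4 and 8.78 in WT. That of Pdgfrb read 4.77 and 5.30 in KO against 1.66 and 1.47 in WT. Of 4 smooth muscle markers, 3 were kept and 3 rose, against 2.94% of all genes. Their part in the Grem1, Fst, Inhba, Fstl1, Bmper and Bmp1 values was not tested. The marker lists were chosen with earlier results of these data known, so nothing is read from these shares. Whether other markers were kept through their KO values alone was not examined.

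Of 10 ES cell markers, all kept, 0 passed, against 4.28% of all genes in either direction. Their summed intensity was 41019 and 41275 in KO clones and 43036 and 44309 in WT clones. At an unadjusted p under 0.05, 0 were higher and 1 lower, against 10.9% and 10.6% of all genes. Pou5f1, Sox2 and Nanog, the core factors of pluripotency, were bright in every clone, and their log2 differences were -0.30, -0.25 and -0.18. Of 8 primitive endoderm markers, 5 were kept and 0 passed, against 4.28% of all genes. At an unadjusted p under 0.05, 1 of them was higher and 0 lower, against 10.9% and 10.6%. Neural and mesoderm markers were dim in all 4 clones, with summed intensities of at most 82.9 and 129.6.

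**Figure D4:**
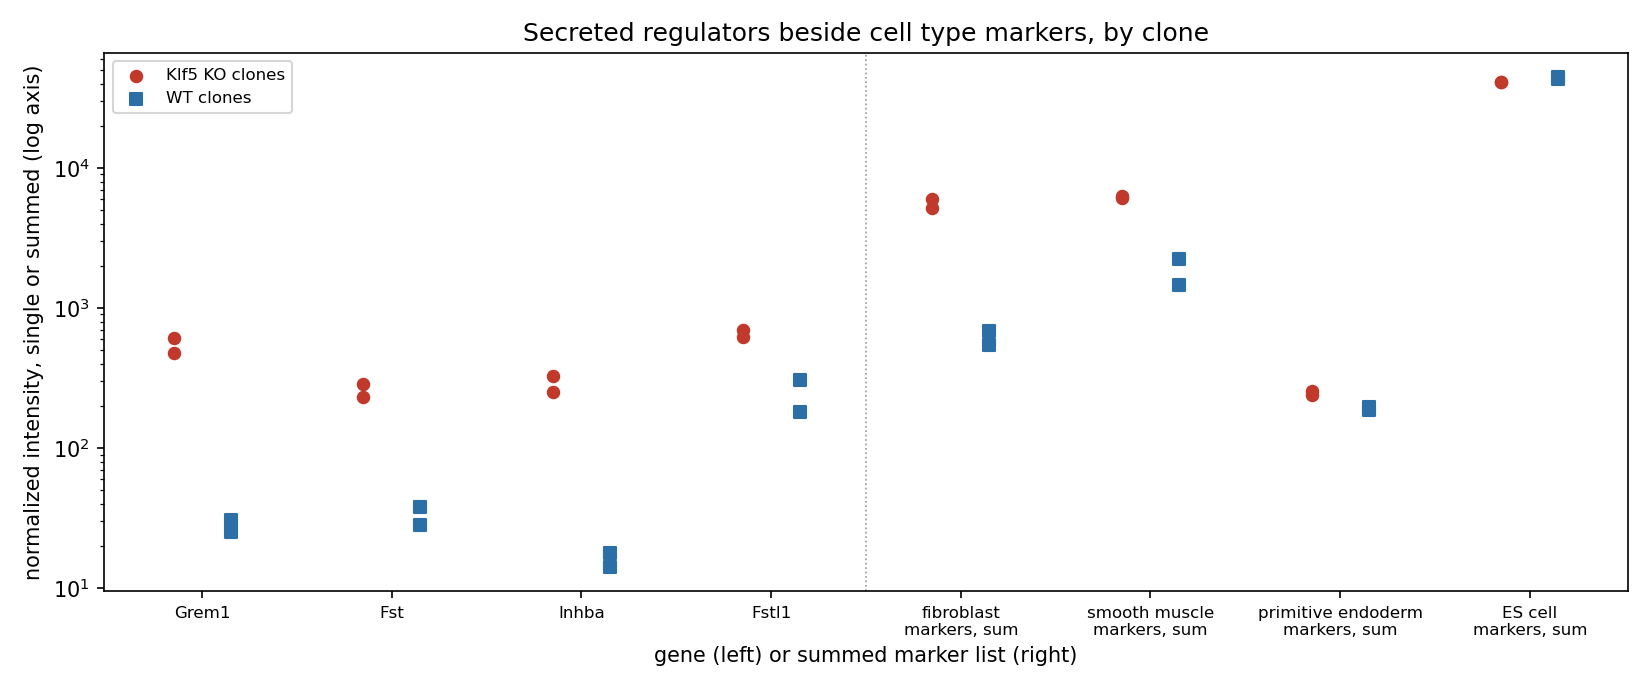
Normalized intensity (log axis) of Grem1, the brighter Fst probe set, Inhba and Fstl1 on the left, and the summed intensity of 4 marker lists on the right, in the 2 Klf5 KO clones (red circles) and the 2 WT clones (blue squares). The fibroblast sum is 6003 and 5149 in KO against 689.9 and 547 in WT, and the ES cell sum is 41019 and 41275 in KO against 43036 and 44309 in WT.

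The genes with the profile over the 4 arrays most like that of Bmp4, by Euclidean distance between centred log2 values, were Cited4, Fgf1 and Usp11, at distances of 0.068, 0.19 and 0.19. Cited4, a transcriptional co-activator, read 12.0 and 9.05 in KO clones, against 35.5 and 55.3 in WT clones. Both KO values were under the filter intensity, so its likeness to Bmp4 rests in part on the pseudocount. Fgf1, a fibroblast growth factor, read 48.8 and 46.3 in KO against 109.5 and 129.6 in WT. For Grem1 they were Cavin2, a caveola gene, Col1a2, a chain of type I collagen, and Gng11, a G protein subunit, at distances of 0.29, 0.36 and 0.38. Cavin2 read 335 and 259 in KO clones, against 17.0 and 6.89 in WT clones, and its value in WT clone 2 was under the filter intensity. Col1a2 read 877 and 900.2 in KO clones, against 45.7 and 46.2 in WT clones. Gng11 read 521 and 381 in KO against 35.2 and 27.5 in WT. With 4 arrays, such a likeness rests mainly on the difference between the genotypes.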

How the data were processed

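Total RNA of each clone was biotin-labelled and hybridised to an Affymetrix GeneChip, per the labels' protocols. Linear intensities were deposited, 1 for each probe set on each array, from 0.0168 to 14472. The authors' probe summary, background correction and scaling are not stated in the sources used here. The table has 45101 rows, 64 of them controls, which were left out of tests. In R 4.3.3 with limma 3.58.1, arrays were quantile normalized and log2(intensity + 16) was taken, which understates the change of dim genes. Probe sets with a mean under the 40th percentile were removed. KO was compared with WT by lmFit and eBayes (6.87 prior and 2 residual degrees of freedom), with Benjamini-Hochberg adjustment over all 27022 kept probe sets. The fit was tested on simulated data. No detection calls were used, and the number of arrays limits the precision. Of the non-control rows, 34945 had 1 gene symbol, 932 several and 9160 none; 34741 gene IDs matched the mouse reference table (GRCm38.p6), which changed no symbol. A gene was represented by its brightest probe set, one ending in _x_at only where there was no other.

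The genes, the pathway and marker lists and the tests were chosen with earlier results of these data known. Named were every member probe set, Klf5, the pathway genes past the threshold, 15 fixed pathway genes, 7 fixed markers and the 3 genes most like Bmp4 and Grem1. The alternatives changed the pseudocount (1 or 64), the filter (none or the 60th percentile), the normalization (none or median centring) and the variance prior (a trend), added a block for clone number, averaged the probe sets of each gene, or left out 1 array.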

Additional observations from a re-analysis of the deposited data

How the results depend on the processing

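The number of probe sets past the threshold, 996, depended on the processing. It was 189 with a pseudocount of 1, 190 with no filter, 332 with the values as deposited, 1955 with a variance trend and 2060 both with a pseudocount of 64 and with median centring. With an array left out it was 203 (KO clone 1), 353 (KO clone 2), 653 (WT clone 1) or 489 (WT clone 2). The 4 other pathway genes that passed became 1 with a pseudocount of 1, with no filter and with the values as deposited, 1 with either KO clone left out and 2 with either WT clone left out; averaging the probe sets of each gene gave 5. The cause was not tested. The differences between clone 1 and clone 2 in KO and in WT had a correlation of 0.055 over kept probe sets. The clone numbers thus showed no shared shift, which cannot show whether the clones were handled in pairs. With the clone number as a block, 1390 probe sets and 5 pathway genes passed. Over 173 values of member probe sets under the alternatives, those past the threshold changed sign 0 times and the others 16 times. Among pathway genes that did not pass, signs turned in the values as deposited (Gdf3 -0.31, Bmpr2 -0.095, Smad7 -0.31) and with median centring (Gdf3 -0.27, Bmpr2 -0.057, Smad7 -0.28). With an array left out, Bmp7 ran from -0.079 to 0.21, Gdf3 from -0.084 to 0.15, Smad5 from -0.32 to 0.056, Smad4 from -0.31 to 0.22 and Smad7 from -0.12 to 0.16. Rows near the filter intensity of 13.05, such as Fst, Bmper and Inhba in WT clones, have sizes set in part by the pseudocount. Every named probe set had the same SE with the values as deposited (0.38) and with median centring (0.27). A pass under those settings thus did not weigh the clone spread of the probe set itself. Among the passes with median centring were those of Bmp4, Id1 and the dimmer Id2 probe set.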

Other observations

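Chosen after their values were seen, 2 further genes of the pathway list lay near a limit of the test. Fstl3, a follistatin-like inhibitor of activins, read 48.6 and 57.7 in KO clones, against 6.53 and 25.1 in WT clones, a log2 difference of 1.18 ± 0.27 (limma, adjusted p = 0.053). Tll1, a protease of the Bmp1 family, read 20.04 and 18.2 in KO clones, against 3.57 and 0.64 in WT clones, and was under the filter, so it was not tested. In both genes the KO clones lay above the WT clones.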
